A study of Caenorhabditis elegans with 6 samples.

Results

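The 10 genes described here encode the BMP-like pathway that sets body size in Caenorhabditis elegans: the ligand gene dbl-1, the modulators sma-10 and lon-2, the receptors sma-6 and daf-4, the Smads sma-2, sma-3 and sma-4, the nuclear cofactor sma-9 and the downstream gene lon-1. They were taken by gene name from 47656 genes listed in the deposited tables, and all 10 have a value in all 6 libraries. RNA was sequenced from whole N2 worms, the standard laboratory strain, at an age of 6 days: 3 libraries are of worms treated with D-mannose and 3 of worms treated with water. Both groups grew on plates with the OP50 strain of Escherichia coli. The mannose dose, the number of worms in a library and whether the libraries came from separate cultures are not stated in the labels, so a p-value measures the spread between these libraries, which may be technical.

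DBL-1 is a secreted ligand of the BMP family that is made largely by neurons and acts on the epidermis. It signals through a pair of receptor kinases, SMA-6 (type I) and DAF-4 (type II), which lead to phosphorylation of the receptor-regulated Smads SMA-2 and SMA-3; these enter the nucleus with the co-Smad SMA-4 and change transcription. Worms that lack the pathway are small and worms with too much DBL-1 are long, and genes for cuticle collagens are among its known targets. DAF-4 is also the type II receptor of the dauer pathway, a separate branch of TGF-beta signalling in the worm.

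The values are FPKM, fragments scaled by gene length and an effective library size, so levels of different genes in a library can be set side by side. The effective size, read from the values, was not the library's read total. It was 37994470 against 42681943 summed reads in mannose 1 and 38608948 against 46041079 in water 3. In the other libraries it exceeded the sum, as in mannose 3 with 49383979 against 43739083. This scaling raises mannose 1 and water 3 relative to scaling by summed reads. The libraries held 39892300 to 46041079 read equivalents each, and single members had between 89 reads (dbl-1 in water 3) and 2163 (lon-1 in water 1). Counting error alone is therefore at most 10.6% of a value, for dbl-1. Adult markers were abundant in every library: the adult collagen gene col-19 had 2081 to 3234 FPKM and the yolk protein gene vit-2 had 1555 to 2115 FPKM. Mannose 1 and water 3 stood apart from the other 4 libraries in their oocyte and germline markers, whose summed level was 3001 and 3120 FPKM there against 861.2 to 1570 elsewhere. All 10 of these markers passed the filter on low values, none was at 0, and 9 of the 10 were highest in both of those libraries. This split runs across the treatments, and values without both libraries are given below for every member and ratio.

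Transcript levels of the pathway were low, and only its downstream gene lon-1 lay above the median of the tested genes. Averaged over the 6 libraries, lon-1 had 36.1 ± 5.09 FPKM and lon-2 10.7 ± 0.972, followed by daf-4 with 6.55 ± 2.34 and sma-4 with 6.43 ± 1.04 (SD, n = 6 for each gene). The others lay lower still, with 3.00 ± 0.584 FPKM for sma-6, 2.67 ± 0.568 for sma-10, 2.21 ± 0.179 for sma-2, 2.18 ± 0.535 for sma-3, 1.71 ± 0.276 for dbl-1 and 1.54 ± 0.735 for sma-9. The median of these 10 means was 2.84 FPKM, against 13.8 FPKM over the 11237 genes tested. The gene lon-1 ranked above 68.3% of the tested genes and sma-9 above 11.5%.

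Some steps of this order held in every library and others did not. The level of lon-1 exceeded that of lon-2 in 6 of 6 libraries, by 2.33 to 4.09 times, and sma-4 exceeded sma-6 in 6 of 6, by 1.89 to 2.34 times. The level of lon-2 also exceeded that of daf-4 in all 6, though by only 1.10 times in the closest library. By contrast daf-4 lay above sma-4 in 2 of 6 libraries and sma-10 above sma-2 in 3 of 6. The receptor-regulated Smads sma-2 and sma-3 exchanged places as well, with sma-2 higher in 4 of 6, as did dbl-1 and sma-9, with dbl-1 higher in 4 of 6. Among the lower members sma-6 was above sma-10 in 5 of 6 libraries and sma-3 above dbl-1 in 5 of 6.

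**Figure D1:**
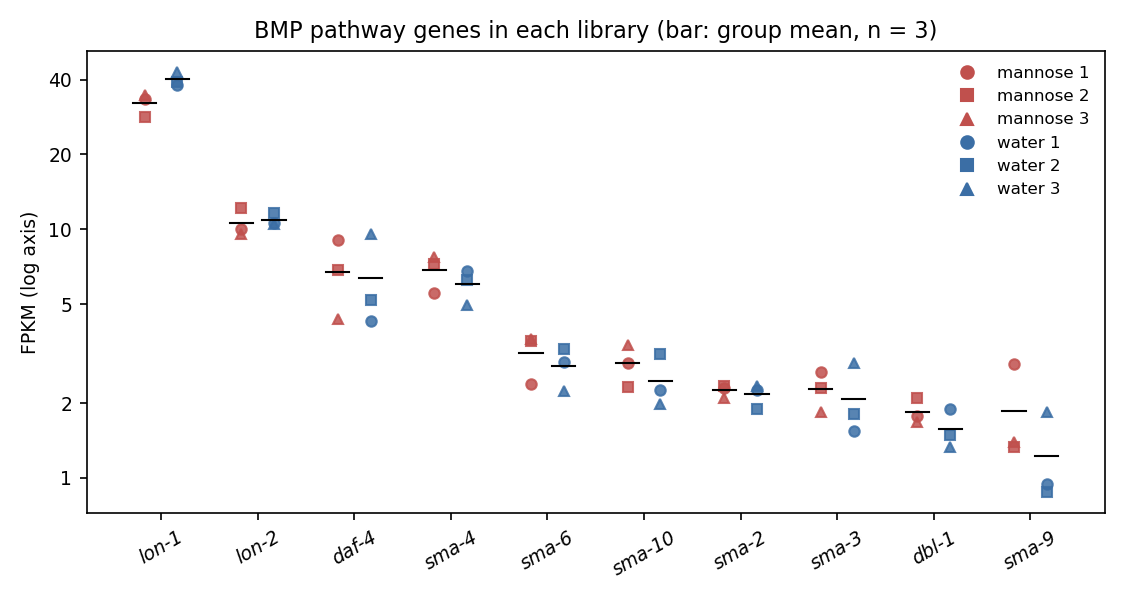
Level of each BMP pathway gene in FPKM (log axis) in the 3 mannose libraries (red) and the 3 water libraries (blue), with genes in order of their mean and a black bar at each group mean. The 3 mannose libraries of lon-1 (28.4 to 34.6 FPKM) lie below its 3 water libraries (38.1 to 43.0 FPKM), and the groups overlap for the other 9 genes.

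The comparison of mannose with water asks whether these transcripts differed in worms given the sugar. None of the 10 members passed limma's test adjusted over all tested genes (adjusted p = 0.9999 for each), 0 had an unadjusted p under 0.05, and limma-voom on read equivalents gave 0 by both counts as well. Over all 11237 genes 0 were called (0.00%), while 4.73% had an unadjusted p under 0.05. Of the members, 8 had a higher fitted mean in mannose and 2 a lower one, with a median log2 difference of 0.11 beside 0.01 over all genes; 54.5% of all genes were higher in mannose. All 10 members passed the filter on low values, although sma-9 was under 1 FPKM in 2 of the water libraries.

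The ligand and its modulators at the cell surface did not separate the groups. The gene dbl-1 (WBcel235 chromosome V, 6758135 to 6760418, plus strand) had 1.77, 2.10 and 1.68 FPKM in mannose 1, 2 and 3, against 1.89, 1.48 and 1.33 FPKM in water 1, 2 and 3. Its groups overlapped through water 1, and the means were 1.85 ± 0.222 and 1.57 ± 0.289 FPKM (SD, n = 3). The log2 difference was 0.15 with a standard error (SE) of 0.13 and a 95% interval of −0.17 to 0.47, or 0.889-fold to 1.39-fold; adding 1 FPKM before the logarithm makes changes of such low genes look smaller. Leaving out 1 library moved the difference between 0.09 (without water 3) and 0.24 (without water 1).

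The gene sma-10 (IV, 274126 to 279943, plus strand) encodes a membrane protein with leucine-rich repeats and immunoglobulin domains that promotes signalling at the receptors. It had 2.90, 2.33 and 3.42 FPKM in mannose 1, 2 and 3, against 2.25, 3.15 and 1.98 FPKM in water 1, 2 and 3. The values of the groups were interleaved, and the log2 difference was 0.17 (SE 0.18). Leaving out 1 library moved it between 0.07 (without water 3 or mannose 3) and 0.31 (without water 2).

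LON-2 is a glypican, a cell-surface proteoglycan that binds DBL-1 and restrains the pathway, and worms without it are long. The gene lon-2 (X, 4738950 to 4749083, minus strand) had 9.98, 12.2 and 9.61 FPKM in mannose 1, 2 and 3, against 10.6, 11.6 and 10.5 FPKM in water 1, 2 and 3. It was among the steadiest of the members: its highest value was 1.27 times its lowest, and 11.5% of tested genes varied less on the log2 scale. The log2 difference was −0.04 (SE 0.15), with an interval of −0.41 to 0.33, and it was −0.14 without mannose 2 and 0.018 without mannose 3.

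**Figure D2:**
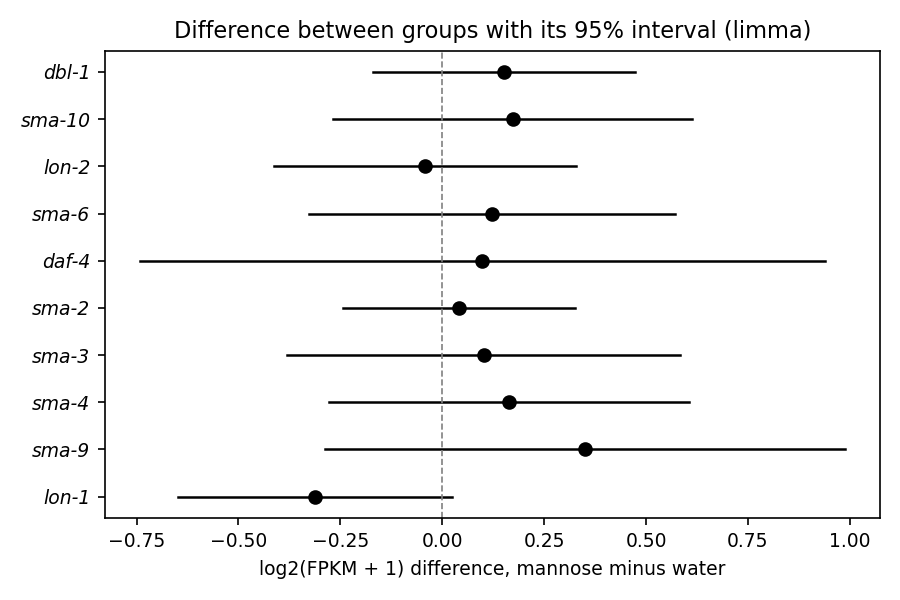
Difference between mannose and water in log2(FPKM + 1) for each gene (dot) with its 95% interval (line) from limma, n = 3 libraries per group, in order of role from the ligand to the downstream gene. All 10 intervals include 0; that of lon-1 reaches from −0.65 to 0.02 and that of daf-4, the widest, from −0.74 to 0.94.

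The receptors differed more between libraries than between treatments, and they did so in opposite directions. The type I receptor gene sma-6 (II, 6324458 to 6327355, plus strand) had 2.38, 3.54 and 3.60 FPKM in mannose 1, 2 and 3, against 2.92, 3.30 and 2.25 FPKM in water 1, 2 and 3, so mannose 1 and water 3 were its lowest libraries. The type II receptor gene daf-4 (III, 5625132 to 5632504, plus strand) had 9.04, 6.89 and 4.34 FPKM in mannose, against 4.26, 5.21 and 9.55 FPKM in water, in the same order, so mannose 1 and water 3 were its highest.

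Neither receptor differed between treatments beyond this spread. The log2 difference was 0.12 (SE 0.19) for sma-6 and 0.10 (SE 0.35) for daf-4. The sma-6 difference was 0.27 without mannose 1 and 0.0084 without water 3. For daf-4 the direction rested on single libraries: leaving out mannose 1 or water 1 gave −0.11 each, but leaving out mannose 3 gave 0.34 and leaving out water 3 gave 0.39. The model of daf-4 holds a further expressed gene on its strand, C05D2.11 (5626944 to 5628206, 2.96 to 4.14 FPKM), which lies in an intron of daf-4 in the Ensembl annotation.

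As a ratio within each library, which no scaling of the libraries can alter, sma-6 stood at 0.263, 0.514 and 0.830 of daf-4 in mannose 1, 2 and 3, against 0.686, 0.634 and 0.235 in water 1, 2 and 3. The type I receptor transcript was thus the scarcer of the pair in all 6 libraries, and the ratio spanned 3.53-fold. The group means were 0.536 ± 0.284 in mannose and 0.518 ± 0.247 in water (SD, n = 3). The difference in the log2 ratio was 0.04 (two-sided exact permutation test, p = 1, adjusted over 3 ratios p = 1), and the smallest p that 3 libraries against 3 can give is 0.1. It changed sign without mannose 2 (−0.0006), mannose 3 (−0.35), water 3 (−0.45) or both mannose 1 and water 3 (−0.014).

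The Smads were expressed at unequal levels, with the shared partner in excess of either receptor-regulated Smad. The gene sma-2 (III, 8749680 to 8757089, plus strand) had 2.31, 2.35 and 2.09 FPKM in mannose 1, 2 and 3, against 2.26, 1.90 and 2.33 FPKM in water 1, 2 and 3. It was the steadiest member, and its highest value was 1.24 times its lowest. On the log2(FPKM + 1) scale, which compresses low genes, 2.95% of tested genes varied less. Its log2 difference was 0.04 (SE 0.12), with an interval of −0.24 to 0.33, and it was −0.0030 with upper-quartile scaling and −0.022 without water 2. The span of sma-2 shares 1027 bases with ugtp-1 (28.4 to 41.4 FPKM) and 107 with aak-1 (17.2 to 24.2 FPKM), both on the opposite strand. Whether counting used strand is not given in the labels, and reads of sma-2 and of these more abundant genes cannot be told apart where they overlap.

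The gene sma-3 (III, 6860939 to 6863968, minus strand) had 2.67, 2.29 and 1.84 FPKM in mannose 1, 2 and 3, against 1.54, 1.81 and 2.90 FPKM in water 1, 2 and 3. Water 3 and mannose 1 were again the highest, and the groups overlapped widely, with a log2 difference of 0.10 (SE 0.20) that became −0.025 without water 1 and 0.28 without water 3. The co-Smad gene sma-4 (III, 5816275 to 5820204, plus strand) had 5.57, 7.27 and 7.72 FPKM in mannose, against 6.79, 6.24 and 4.97 FPKM in water, in the same order. It was lowest in mannose 1 and water 3, like sma-6, and its log2 difference was 0.16 (SE 0.18), or 0.29 without mannose 1 and 0.05 without water 3.

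The ratios among Smads followed the same libraries. The ratio of sma-2 to sma-3 was 0.864, 1.03 and 1.14 in mannose 1, 2 and 3, against 1.47, 1.05 and 0.805 in water 1, 2 and 3, so it was under 1 in mannose 1 and water 3 and above 1 in the other 4 libraries. The ratio of sma-4 to the sum of sma-2 and sma-3 was 1.12, 1.56 and 1.96 in mannose, against 1.78, 1.69 and 0.949 in water, and water 3 was the only library in which the receptor-regulated Smads together exceeded the co-Smad. Between treatments the log2 ratios differed by −0.10 for sma-2 to sma-3 (two-sided exact permutation test, p = 0.8, adjusted p = 1) and by 0.09 for sma-4 to the sum (p = 0.7 by the same exact test, adjusted p = 1). The first changed sign without mannose 1 (0.007) or water 1 (0.12) and the second without mannose 3 (−0.10) or water 3 (−0.20). Without both mannose 1 and water 3 they were −0.20 and 0.01.

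**Figure D3:**
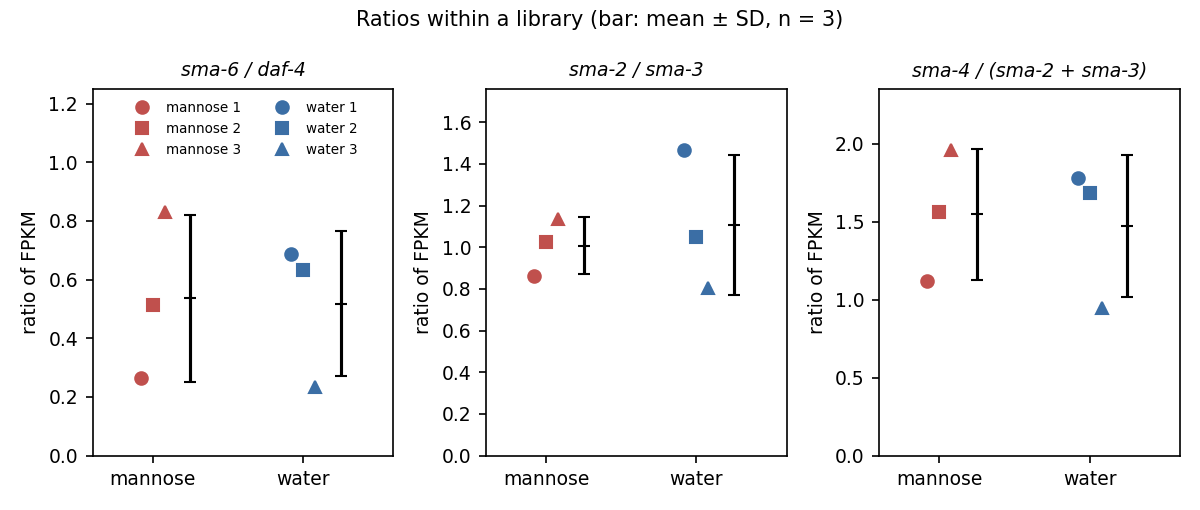
Ratios of FPKM within each library for the receptors (sma-6 to daf-4) and the Smads (sma-2 to sma-3, and sma-4 to the sum of both), with each group's mean ± SD beside its 3 points and axes from 0. Mannose 1 (red circle) and water 3 (blue triangle) are the lowest of their groups in all 3 panels, at 0.263 and 0.235 for the receptors.

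SMA-9 is the worm's Schnurri, a large zinc finger protein that works with the Smads in the nucleus. The gene sma-9 (X, 10769282 to 10782973, plus strand, with 16 transcripts in the Ensembl annotation) had 2.86, 1.32 and 1.40 FPKM in mannose 1, 2 and 3, against 0.945, 0.876 and 1.85 FPKM in water 1, 2 and 3. The groups overlapped because water 3 lay above mannose 2 and mannose 3. Its log2 difference of 0.35 (SE 0.26) was the largest upward one among the members, with an interval of −0.29 to 0.99 (limma, unadjusted p = 0.23). Without both mannose 1 and water 3 the difference was 0.31 (unadjusted p = 0.057), while it was 0.11 without mannose 1 alone and 0.54 without water 3 alone.

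In the deposited FPKM the downstream gene lon-1 was the only member whose groups did not overlap. Scaling by summed reads in place of the effective library sizes would put mannose 3 above water 3 for lon-1. Its groups would then overlap, so their separation depends on the scaling. LON-1 is a secreted protein of the CAP family (cysteine-rich secretory proteins) made in the epidermis. DBL-1 signalling is known to lower its transcript, and worms without it are long. The gene (III, 5474476 to 5478005, plus strand) had 33.4, 28.4 and 34.6 FPKM in mannose 1, 2 and 3, against 38.1, 39.1 and 43.0 FPKM in water 1, 2 and 3. The means were 32.1 ± 3.27 and 40.1 ± 2.60 FPKM (SD, n = 3).

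The log2 difference of lon-1 was −0.31 (SE 0.14), with an interval of −0.65 to 0.02, or 0.805-fold with an interval of 0.637 to 1.02 (limma, unadjusted p = 0.063, adjusted p = 0.9999). It did not pass the test. Groups failed to overlap in 10.7% of all tested genes and did so with mannose lower in 5.31%, so 1 member of 10 is close to the share among all genes. In the 7 fits that left out libraries, the lon-1 difference lay between −0.37 and −0.23, with unadjusted p between 0.061 and 0.21.

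In whole-worm RNA a smaller epidermis and less of a transcript per epidermal cell cannot be told apart. The 8 epidermal markers, of which 6 passed the filter and none was at 0, summed to 2129 to 2502 FPKM in mannose and to 2748 to 3316 in water, and their groups did not overlap either. That sum is nearly all col-19. The other 7 summed to 40.8 to 64.5 FPKM in mannose and to 34.6 to 81.8 in water, with overlapping groups. In every library the largest of the 7 was lin-26 (18.9 to 37.8 FPKM). The marker nhr-23 had 16.9 and 17.8 FPKM in mannose 1 and water 3 against 3.68 to 6.73 elsewhere. Only dpy-4 of the 7 had groups that did not overlap, with 2.40 to 4.11 FPKM in mannose and 6.16 to 21.6 in water. The part of epidermis size and of level per epidermal cell in the lon-1 values was not tested.

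The libraries mannose 1 and water 3 were at the extremes for 5 of the 10 genes. The genes daf-4, sma-3 and sma-9 were highest in both mannose 1 and water 3, as were 28.6% of all tested genes, and sma-6 and sma-4 were lowest in both, as were 21.5%. These 3 and 2 of 10 are near the shares among all genes. The oocyte and germline markers had median deviations of 1.07 and 0.76 log2 units in mannose 1 and water 3, 0.09 in mannose 2 and −0.80 to −0.53 in the other 3 libraries. The values of daf-4 ran in nearly the same order, with 0.47 and 0.54 in mannose 1 and water 3, 0.12 in mannose 2 and −0.46 to −0.23 in the rest. The part of oocyte RNA in the levels of daf-4, sma-3 and sma-9 was not tested.

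With both libraries left out, 2 remained in each group. The log2 differences then were 0.18 for daf-4, 0.20 for sma-3, 0.31 for sma-9, 0.15 for sma-6 and 0.18 for sma-4, the 5 genes at the extremes. They were 0.10 for dbl-1, 0.06 for sma-10, −0.03 for lon-2, 0.07 for sma-2 and −0.29 for lon-1, so each member kept its direction and 0 passed limma's adjusted test.

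**Figure D4:**
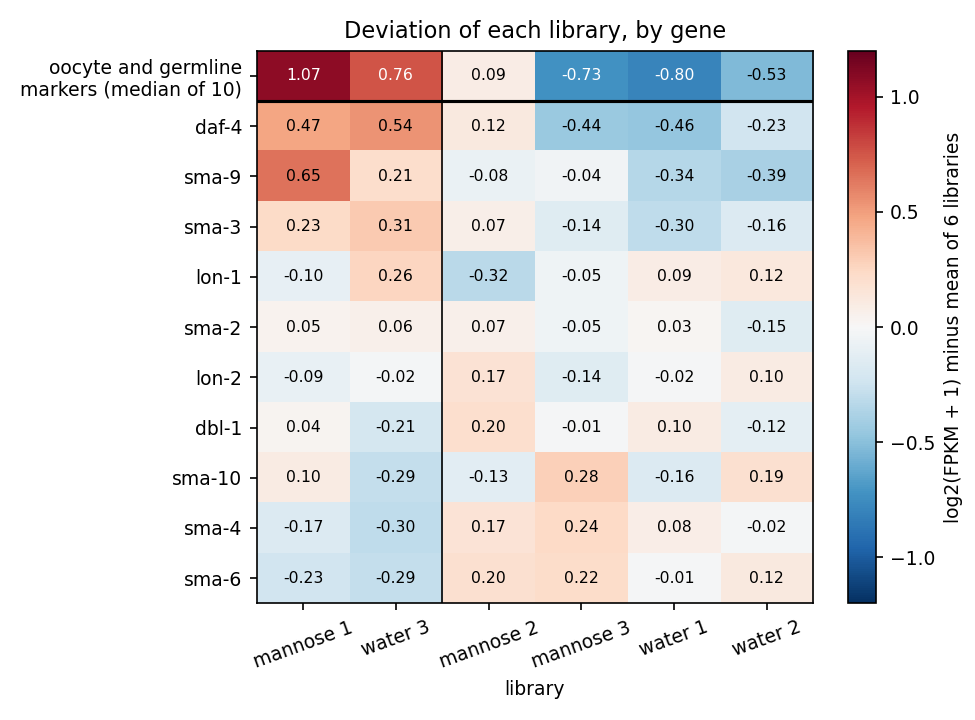
Deviation of each library from the mean of the 6 libraries, in log2(FPKM + 1), for the 10 genes, below the median deviation of 10 oocyte and germline markers. Libraries are ordered with mannose 1 and water 3 at the left; daf-4 is at 0.47 and 0.54 there, while sma-6 is at −0.23 and −0.29.

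On the log2(FPKM + 1) scale the members daf-4 and sma-9 varied most. Their standard deviations over the libraries, 0.44 and 0.39 log2 units, exceeded those of 81.3% and 77.0% of tested genes. In FPKM the highest value was 2.24 times the lowest for daf-4 and 3.27 times for sma-9, because adding 1 FPKM compresses low genes. Among the 11237 genes, the pattern nearest to daf-4 over the 6 libraries was that of ZC8.6, at a root mean square distance of 0.043 log2 units, followed by enu-3.1 (0.052) and lsd-1 (0.052). The nearest to sma-9 were neg-1 (0.038), eor-2 (0.051) and T25C12.3 (0.080). These distances are on the same scale, so neg-1 (67.1 to 137.1 FPKM) came near to sma-9 with a smaller fold range. They describe 6 libraries that share the oocyte split and are not tested.

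Other genes of DBL-1 signalling gave no call either. Of 20 further pathway genes, 17 were tested. In mannose 10 of these were higher and 7 lower, and their median log2 difference was 0.10 (0.01 over all genes). None passed limma's adjusted test and 0 had an unadjusted p under 0.05, with 0 and 0 by limma-voom, and the groups overlapped for each. The member with the smallest p, tsp-14, encodes a tetraspanin that promotes BMP signalling and had 1.07, 0.570 and 0.841 FPKM in mannose 1, 2 and 3, against 0.921, 1.13 and 1.97 FPKM in water 1, 2 and 3, a log2 difference of −0.34 (SE 0.20).

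The sorting nexin gene snx-3, another of these 17, which acts in the recycling of SMA-6, averaged 161.0 ± 18.5 FPKM under mannose against 141.6 ± 6.45 FPKM under water (SD, n = 3), and the log2 difference was 0.18 (SE 0.12). The neogenin homolog gene unc-40, whose product modulates the pathway, had 36.7, 24.6 and 14.7 FPKM in mannose 1, 2 and 3, against 12.3, 15.2 and 23.2 FPKM in water 1, 2 and 3, a log2 difference of 0.52 (SE 0.38). It was highest in mannose 1, and 9 of the 17 tested genes were highest in both mannose 1 and water 3, as were 28.6% of all tested genes. The untested genes drag-1, rnt-1 and gpn-1 lay under 1 FPKM in every library.

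In the dauer branch and among the other ligands, 7 of 9 genes were tested. All 7 had a higher fitted mean in mannose, as did 54.5% of all genes, by 0.01 to 0.20 log2 units with a median of 0.06. The median was 0.01 without water 1 and 0.20 without water 3. Of the 7 genes 0 passed the adjusted test or had an unadjusted p under 0.05 by limma or limma-voom. Only the Smad gene daf-8 had groups that did not overlap, with 4.74, 4.21 and 3.69 FPKM in mannose 1, 2 and 3, against 3.57, 3.49 and 3.47 FPKM in water 1, 2 and 3 (log2 difference 0.20, SE 0.13); 5.42% of all genes lay higher in mannose in this way. The Smad gene daf-14 had a log2 difference of 0.14 (SE 0.21) and the ligand gene unc-129 0.10 (SE 0.20). The gene daf-1, chosen after its values were seen, encodes the type I receptor that pairs with DAF-4 in dauer signalling. It had 6.83 and 8.60 FPKM in mannose 1 and water 3 and 1.80 to 3.27 FPKM in the other 4 libraries, so it was high where daf-4 was high and sma-6 was low. Of the 7 tested genes, 3 were highest in both of these libraries, as were 28.6% of all tested genes. Another 2 were lowest in both, as were 21.5%. The dauer ligand gene daf-7 had 0.0867 to 0.593 FPKM and was not tested.

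The 5 tested genes among reported targets of DBL-1 signalling all had lower fitted means in mannose, and none passed the adjusted test. Whether the pathway raises or lowers each of them is not recorded here, and its activity was not tested. The list holds 7 genes, and the median log2 difference of the 5 was −0.38; 0 passed limma's adjusted test, 2 had an unadjusted p under 0.05 (4.73% of all genes), and limma-voom gave 0 and 2. Groups did not overlap, with mannose lower, for 2 of the 5 (5.31% of all genes). The collagen gene col-142 had 271.5, 200.3 and 294.8 FPKM in mannose 1, 2 and 3, against 405.4, 386.4 and 499.4 FPKM in water 1, 2 and 3, without overlap (log2 difference −0.76, SE 0.18). The collagen gene col-141 had 4.06 to 4.76 FPKM in mannose and 5.28 to 7.47 in water, also without overlap (−0.38, SE 0.16). The collagen gene rol-6 had 0.459, 1.12 and 0.781 FPKM in mannose, against 1.82, 1.08 and 2.35 FPKM in water (−0.61, SE 0.22), on as few as 19 reads.

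The other tested genes of that list lay nearer to 0. The lysozyme gene lys-8, also reported to depend on the pathway, had 121.8 to 133.4 FPKM in mannose and 122.9 to 143.3 in water (log2 difference −0.05), and the antimicrobial peptide gene cnc-2 had 1.35 to 1.47 FPKM in mannose and 1.15 to 2.30 in water (−0.13). The collagen gene col-41 was listed at 0 in 3 libraries and reached 2.19 FPKM in water 1, and neither it nor lon-3 was tested. The list was chosen with the lower collagen levels in mannose already known, so it is no independent sign of a direction.

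Body length genes outside the pathway had the widest spread of differences among these lists, and the list median rested in part on water 3. Of 14 genes, which share rol-6 and lon-3 with the target list, 8 were tested. In mannose 6 of these were lower and 2 higher, and their median log2 difference was −0.48. None passed limma's adjusted test, 2 had an unadjusted p under 0.05 (4.73% of all genes), and limma-voom gave 0 and 2. Groups did not overlap for 5 of the 8, with 4 lower and 1 higher in mannose (10.7% of all genes in either direction). The cuticle collagen gene dpy-13 had 2.34, 2.96 and 3.07 FPKM in mannose 1, 2 and 3, against 6.42, 5.20 and 20.4 FPKM in water 1, 2 and 3 (log2 difference −1.40, SE 0.47). The cuticle collagen gene dpy-5 had 4.93, 4.77 and 5.97 FPKM in mannose, against 8.56, 8.06 and 27.4 FPKM in water, in the same order (−1.12, SE 0.46). Water 3 lay far above the other water libraries for both. The 2 genes with higher fitted means, named after their values were seen, were sma-5 (0.23, SE 0.13, without overlap) and the cuticle collagen gene dpy-10 (0.50, SE 0.28, with overlap). The median of the list was −0.21 without water 3 and −0.17 without both mannose 1 and water 3.

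**Figure D5:**
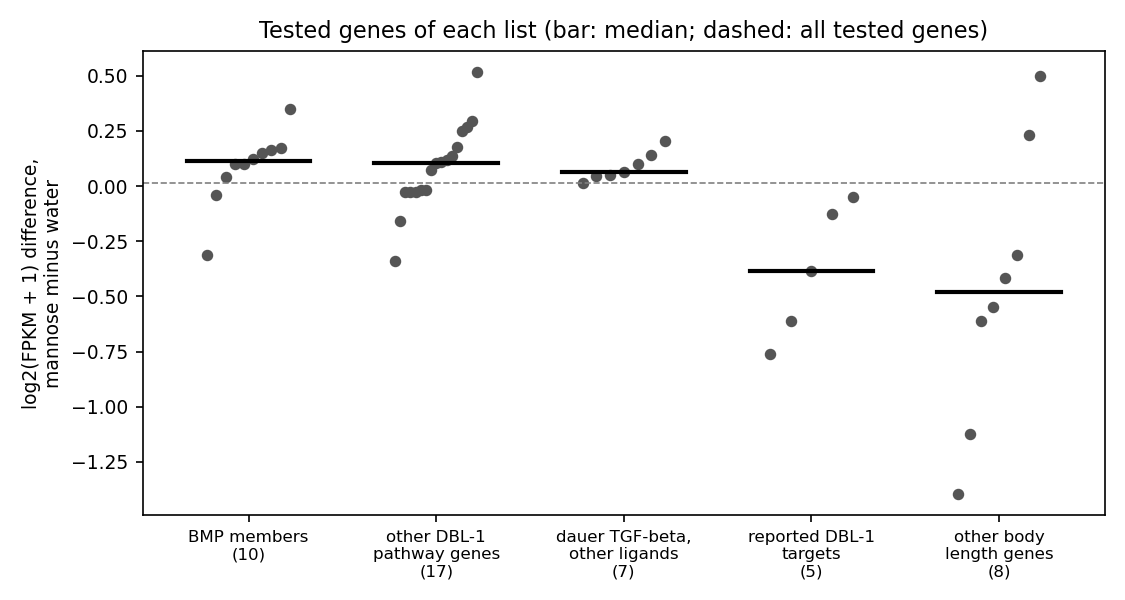
Difference between mannose and water in log2(FPKM + 1) for each tested gene (dot) of the 10 BMP pathway genes and 4 further lists, with the list median as a bar and the median of all tested genes as a dashed line. The medians of the signalling lists lie near 0 (0.11, 0.10 and 0.06), with single genes from −0.34 to 0.52. The medians of reported targets and other body length genes, most of them collagens, lie lower (−0.38 and −0.48). The last was −0.17 without mannose 1 and water 3, and the target gene lys-8 was at −0.05. No gene passed the adjusted test.

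Apart from the treatment, the members share few features in the deposited annotation. Of the 10 genes, 5 lie on chromosome III, where 16.7% of tested genes lie. The deposited protein annotation gives MH1 and MH2 domains, the DNA-binding and protein-binding parts of a Smad, for sma-2, sma-3 and sma-4, and kinase domains for sma-6 and daf-4. It gives a TGF-beta domain at residues 313 to 414 for dbl-1, a glypican domain for lon-2 and a CAP domain for lon-1. The listed gene lengths run from 1173 bases for lon-1 to 7397 for sma-9.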

How the data were processed

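The deposited tables hold 1 FPKM value per gene and library. Per the submitters' processing notes, cutadapt, FastQC and HISAT2 2.1.0 were used, with the genome build WBcel235. No source used here names the read counter or its strand setting. The unit deposited by the authors was read from the numbers themselves: FPKM times gene length fell on whole reads (tolerance 0.05) for 95.0% to 95.8% of values of up to 20 reads, and for 86.1% to 86.8% of values above 0. These steps gave the read equivalents. Intervals from counts cover counting error only.

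The test covered the 11237 genes with at least 1 FPKM in at least 3 libraries and used limma 3.58.1 in R 4.3.3, with trend and robust settings, on log2(FPKM + 1), which understates changes of low genes, and p-values were adjusted by Benjamini-Hochberg over all of them at a threshold of 0.05. The code of the fit was checked on simulated data with independent noise and the same spread for every gene. That setting lacks the oocyte split, so the check does not measure detection in these libraries. No 2 libraries of a group agreed within sampling noise: their median squared difference was at least 9.20 times that noise. Ratios were compared by exact permutation with SciPy 1.17.1. No p-value was adjusted over a list alone. The members, lists and alternatives were chosen with earlier results of these data known. All 10 members and the 3 genes with the smallest p of each other list were named. Positions are those of the deposited tables; the RefSeq gene table for WBcel235 gives the same start and end for 4 of the 10. Sequences were not used here.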

Additional observations from a re-analysis of the deposited data

How the results depend on the processing

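No member passed the adjusted test, and 0 had an unadjusted p under 0.05, in any of the 13 other fits. None of these fits scaled the libraries by their summed reads. Over all genes the count of calls was 0 to 2 when 1 library was left out (2 without mannose 1) and 3 without both mannose 1 and water 3. Without both, 5 members had groups that did not overlap, as did 34.7% of all genes with 2 libraries a group; with 1 library left out it was 1 to 3, with 19.9% of genes without mannose 1 and 24.9% without water 3. The direction of 4 members turned. The difference of sma-2 was −0.0030 with upper-quartile scaling and ran from −0.022 (without water 2) to 0.080 when 1 library was left out; daf-4 ran from −0.11 (without mannose 1 or water 1) to 0.39, lon-2 from −0.14 to 0.018 (without mannose 3) and sma-3 from −0.025 (without water 1) to 0.28. The log2 ratio of sma-6 to daf-4 differed by −0.45 to 0.48 when 1 library was left out (−0.35 without mannose 3, −0.0006 without mannose 2) and by −0.014 without both; that of sma-2 to sma-3 by −0.31 to 0.12 (0.007 without mannose 1) and that of sma-4 to the sum by −0.20 to 0.30 (−0.10 without mannose 3). The median of the members lay between 0.07 and 0.16 in every fit, that of other DBL-1 pathway genes between −0.05 and 0.28 when 1 library was left out, and that of the other body length genes was −0.17 without both libraries. The cause of these changes was not tested.

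Equal replicate numbers did not consistently go with like deviations: those of same-numbered libraries from their group means correlated at −0.74, 0.24 and −0.71 over genes. For mannose 1 with water 3, the libraries of the oocyte split, the correlation was 0.77. The check therefore cannot tell whether libraries of equal number were handled together. With the number as a replicate block, 0 members and 0 genes were called, 0 members had an unadjusted p under 0.05, and the member median stayed at 0.11; the paired ratios differed by 0.04, −0.10 and 0.09. With 3 libraries a group, the intervals of all 10 members lay within 1 log2 unit of 0 on the log2(FPKM + 1) scale. That scale compresses genes near 1 FPKM. For sma-9 the difference was 0.35 there, 0.56 (SE 0.40) with an offset of 0.1 FPKM and 0.60 (SE 0.42) by limma-voom. An interval is not a limit of detection, and larger differences, such as −1.40 for dpy-13, also went uncalled.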
